A study of Drosophila melanogaster with 3 samples.

Results

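The genes described here encode the subunits of TFIID and Mediator, with the other basal factors of RNA polymerase II that carry TfII symbols and the TBP-related genes Trf and Trf2. They were chosen by symbol from the Ensembl annotation of the fly genome. The rule took protein-coding genes whose symbol begins with Taf or MED and a digit, or with TfII, or is Tbp, Trf or Trf2. No measured value enters the rule, but earlier results of these data were known when it was set. The rule gave 52 of the 13945 protein-coding genes on the 6 main arms: 16 TFIID genes including Tbp, 25 Mediator genes, 9 TfII genes, and Trf and Trf2. The measurement was chromatin immunoprecipitation with sequencing (ChIP-seq) of BEAF-32, an insulator protein, in Drosophila melanogaster. The embryos came from a transgenic line that stably expresses BEAF-32 with GFP at its C-terminal end, collected from 0 to 14 h of age with both sexes together, and the fusion was pulled down through the GFP tag. All 3 libraries, labelled as biological replicates 1, 2 and 3, belong to this single group, so no genotype or treatment was compared. The libraries come from whole embryos of mixed ages, and cells that do or do not carry the protein at a gene cannot be told apart in them.

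TFIID is the complex of the TATA-binding protein Tbp and its associated factors (TAFs) that recognises core promoters, and Mediator is the large complex that passes signals from gene-specific factors to RNA polymerase II. TfIIA, TfIIB, TfIIE and TfIIF complete the assembly of the polymerase at the promoter, and TfIIS helps a stalled polymerase to resume. BEAF-32 binds clusters of the string CGATA and is known in flies from boundary elements and from the promoters of widely expressed genes, often between genes that are transcribed away from each other. A second string, GGTCACACT, is the core of the promoter element called Motif 1, which the protein M1BP binds in flies.

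The authors' lists give each region a summit and a signal value whose scale is not stated, and no read totals were used, so the depth behind each value is unknown. The list of regions that passed the authors' irreproducible discovery rate step (the IDR list) held 6070 summits in 5249 regions, with a lowest, median and highest signal of 139, 579 and 22477. It held the same summits as the strongest 6070 of the relaxed list from the pooled libraries, which held 30000. That pooled list is labelled as peaks and background given to the IDR step, so a weak summit in it need not be a peak. The relaxed replicate lists held 26497, 30000 and 30000 summits, and each was used whole and as its strongest 6070. Signals are compared within a list only, and between lists by rank, with rank 1 the strongest.

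The DNA at 9 of these genes or gene pairs shows the range of sites under the summits and at starts without an IDR summit. Capitals mark CGATA and GGTCACACT on either strand, so TATCG is CGATA and AGTGTGACC is GGTCACACT on the other strand. The bases are those of the dm6 RefSeq assembly. The first 3 lines lie between starts that face away from each other, on the plus strand. Taf10b-Taf10 is chr2L:2767816-2767919, MED20-Trf is chr2L:8072819-8072924 and Taf12-Ho is chr3R:11679661-11679772, each with the first bases of both genes. The other lines run in the direction of the gene, with 90 bases before the outermost start and the first 30 of the gene. Taf9 (chrX:17842071-17842190, plus strand) stands for a start with CGATA and a strong summit. MED24 (chr3L:8191180-8191299, plus) and TfIIEbeta (chr3L:4286948-4287067, plus) have the weakest IDR summits of the Mediator and TfII genes. TfIIA-S (chr3R:23891031-23891150, minus) has a summit, and its paralog TfIIA-S-2 (chrX:1011614-1011733, minus) has none. MED15 (chr2L:472923-473042, plus) is the Mediator gene with no IDR summit at a start.
Taf10b-Taf10: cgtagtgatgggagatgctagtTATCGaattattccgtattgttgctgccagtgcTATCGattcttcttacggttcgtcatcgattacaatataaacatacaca
MED20-Trf: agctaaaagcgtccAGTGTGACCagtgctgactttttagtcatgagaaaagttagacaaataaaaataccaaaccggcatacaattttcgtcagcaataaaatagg
Taf12-Ho: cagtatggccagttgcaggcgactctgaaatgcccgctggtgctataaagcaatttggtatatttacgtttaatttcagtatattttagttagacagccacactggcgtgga
Taf9: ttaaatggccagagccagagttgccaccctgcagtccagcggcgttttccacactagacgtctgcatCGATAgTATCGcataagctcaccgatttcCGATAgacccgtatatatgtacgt
MED24: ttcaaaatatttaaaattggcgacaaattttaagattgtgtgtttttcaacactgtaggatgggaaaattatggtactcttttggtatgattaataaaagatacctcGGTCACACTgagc
TfIIEbeta: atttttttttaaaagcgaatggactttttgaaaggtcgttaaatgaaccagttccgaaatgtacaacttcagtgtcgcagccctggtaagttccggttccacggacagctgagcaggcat
TfIIA-S: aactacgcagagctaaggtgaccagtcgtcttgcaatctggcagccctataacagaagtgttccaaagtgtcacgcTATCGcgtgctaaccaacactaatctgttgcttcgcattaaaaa
TfIIA-S-2: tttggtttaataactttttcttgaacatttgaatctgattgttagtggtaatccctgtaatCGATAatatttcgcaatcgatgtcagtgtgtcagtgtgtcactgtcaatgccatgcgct
MED15: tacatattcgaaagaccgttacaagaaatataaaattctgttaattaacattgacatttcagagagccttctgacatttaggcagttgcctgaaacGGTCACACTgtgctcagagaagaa
The Taf10b-Taf10 line holds 2 copies of CGATA, 1 between the starts and 1 in the first bases of Taf10b, and the Taf9 line holds 3. The lines of MED20-Trf and MED24 hold GGTCACACT and no CGATA, and at MED24 the summit base falls inside that string. The lines of Taf12-Ho and TfIIEbeta lie under IDR summits and hold neither string. TfIIA-S-2 holds CGATA although no IDR summit lay near it. The MED15 line holds GGTCACACT and no CGATA, and no IDR summit lay at that start either.

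BEAF-32 lay at the starts of nearly all of these genes. A gene counts as bound here where the IDR list has a summit 500 bp or less from one of its annotated starts, and 49 of 52 members (94.2%) were bound, against 43.7% of all coding genes. By complex, 15 of 16 TFIID genes, 24 of 25 Mediator genes, 8 of 9 TfII genes and both Trf and Trf2 were bound. The unbound members were Taf12L, MED15 and TfIIA-S-2. The 49 bound genes shared 47 summits, because Taf10 and Taf10b share a summit and so do MED20 and Trf, and genes that share a summit are not separate measurements of it.

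The excess over all coding genes was present in each library. Among the strongest 6070 summits of replicates 1, 2 and 3, a summit lay at 92.3, 88.5 and 92.3% of the members, against 42.9, 39.5 and 42.2% of all coding genes. The mean was 91.0 ± 2.22% of members and 41.5 ± 1.77% of all coding genes (SD, n = 3 libraries each). This SD shows only how far the same genes were found again in each library, not the uncertainty of a share over the members. TFIID genes reached 91.7 ± 3.61%, Mediator genes 94.7 ± 2.31% and TfII genes 77.8 ± 0%. Every complex thus stood above the share of all coding genes in each library. In the whole relaxed lists a summit lay at 96.2% of the members in every replicate, against 58.4, 57.9 and 59.6% of all coding genes in replicates 1, 2 and 3. The pooled relaxed list had a summit at 50 members (96.2%), against 59.7% of all coding genes. The members were bound on every arm: 14 of 14 on 3L, 14 of 14 on 3R, 6 of 6 on 2R, 2 of 2 on chromosome 4, 8 of 10 on 2L and 5 of 6 on X. Among all coding genes the arm shares ran from 39.7% on 2L to 62.5% on chromosome 4.

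**Figure D1:**
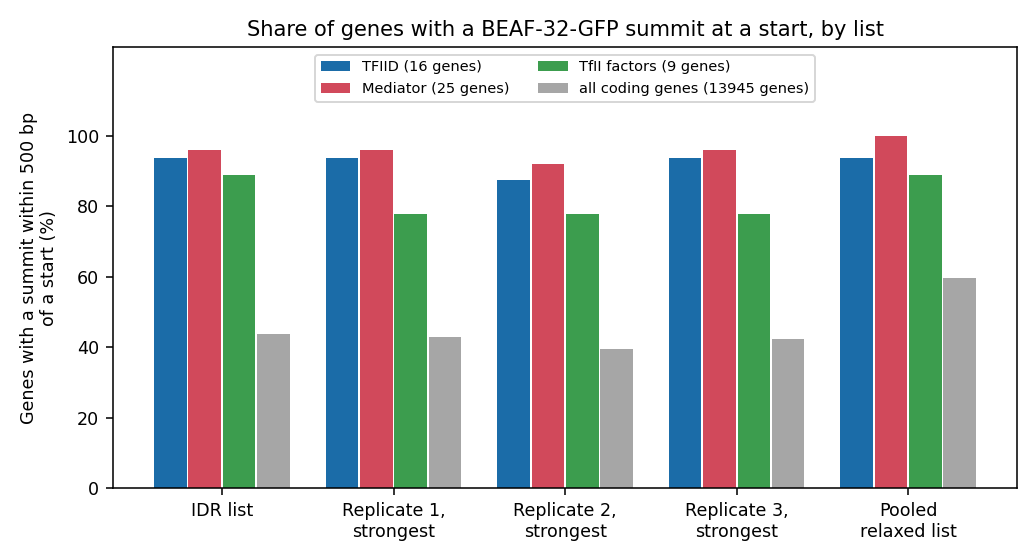
Bars give the percent of TFIID, Mediator and TfII genes and of all 13945 coding genes with a summit within 500 bp of a start, in the IDR list, in the strongest 6070 summits of each replicate and in the pooled relaxed list. In every list the bars of the 3 complexes stand above that of all coding genes, which lies between 39.5 and 59.7%.

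The height of the summits did not set these genes apart in the way their frequency did. The median IDR signal was 908 at the 49 bound members and 976 at the 6092 bound coding genes. Among genes with no start of another coding gene within 1000 bp it was 535 at 12 bound members and 605 at 1971 bound coding genes. In both sets the median of the members was a little below that of all bound coding genes, and no test of that difference was run. The strongest 3035 summits of the IDR list included those of 30 of 49 bound members (61.2%), against 62.3% of all bound coding genes. Summits of that part of the list were thus about as common as elsewhere. The strongest 607 held a smaller share of the members, 3 of the 49 (6.12%), against 14.7% of all bound coding genes. That lower share rests on 3 genes, and no test of it was run. These were Taf7, MED27 and MED7. The median was 2471 in TFIID (range 240.4 to 14876), 729 in Mediator (215 to 11989) and 1074 among the TfII genes (141 to 4269). The TFIID median is the value of the summit shared by Taf10 and Taf10b, which was counted for both genes. The ranges of the 3 complexes all covered the signals from 240.4 to 4269, and no test of the differences between their medians was run.

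**Figure D2:**
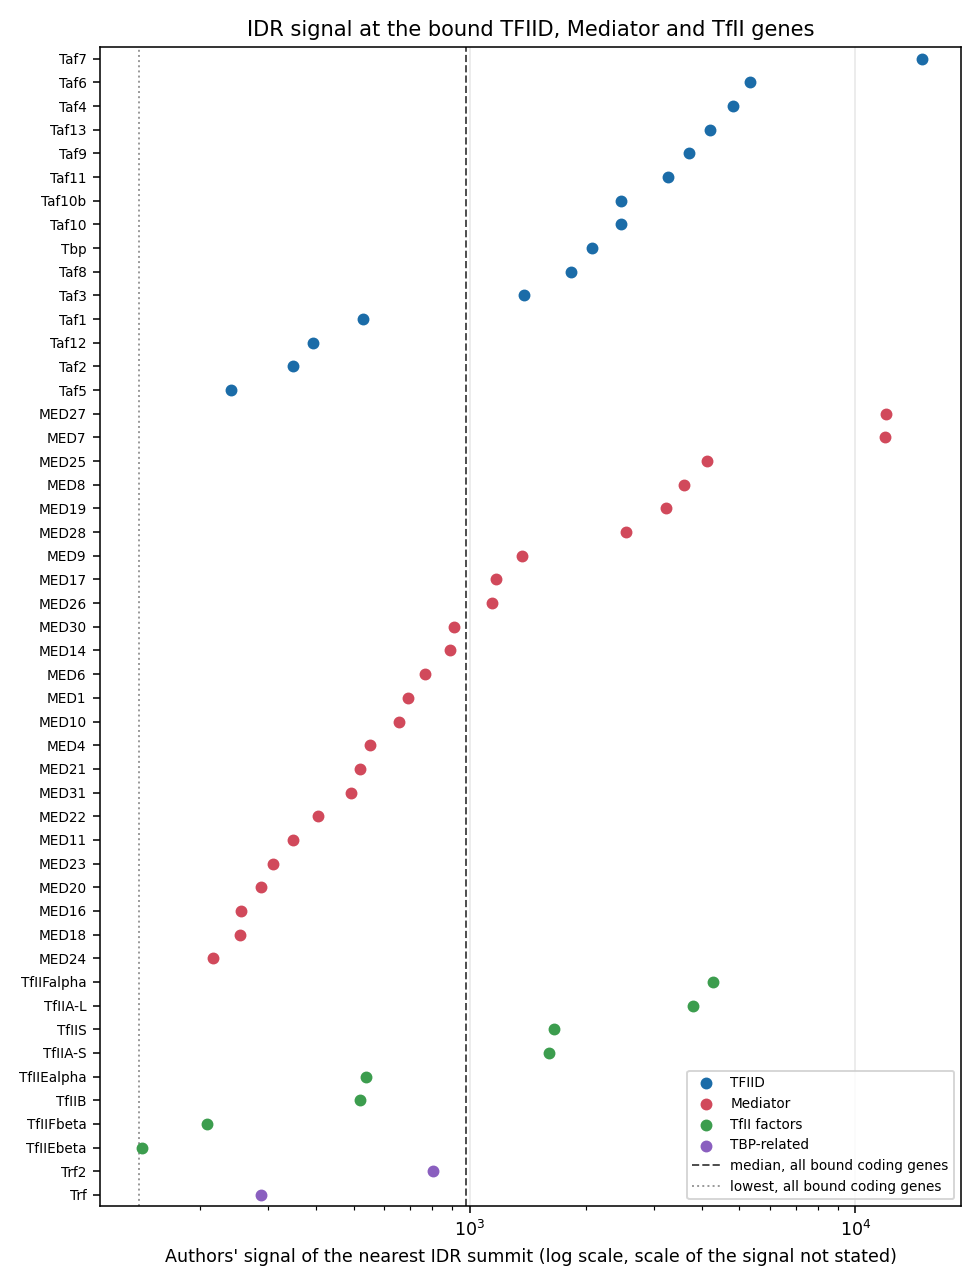
Points give the authors' signal of the nearest IDR summit (log axis) for each of the 49 bound genes, grouped by complex and sorted within it. The dashed line is the median of all bound coding genes (976) and the dotted line their lowest value (139); the points of each complex except Trf and Trf2 fall on both sides of the median.

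Most TAFs carry a histone fold and pair with each other inside TFIID. Of 11 such genes 10 were bound, with IDR signals from 393 to 5322 (median 2868, with the summit shared by Taf10 and Taf10b counted for both). Taf6 and Taf9 form such a pair in TFIID. The Taf6 summit had a signal of 5322 (rank 671) at 237 bp upstream of the start, and the strongest summits within 500 bp had signals of 2201, 1236 and 1973 in replicates 1, 2 and 3, at ranks 539, 883 and 686. The Taf9 summit had a signal of 3695 (rank 1088) at 56 bp upstream. Taf11 and Taf13, a further pair, had signals of 3266 and 4187 at 206 and 117 bp upstream. In these pairs both partners were well above the list median.

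Taf4, a scaffold of the complex, pairs with Taf12. The Taf4 summit had a signal of 4802 (rank 786), with 1470.2, 1546 and 1701 in replicates 1, 2 and 3, at ranks 991, 631 and 856. It lay 20 bp from an inner start of Taf4 and 558 bp from the outermost one, within an intron of the longer transcripts. The Taf12 summit was much weaker, at 393 (rank 3742), with 129, 126 and 136 in replicates 1, 2 and 3, at ranks 4065, 4497 and 4182. The order of Taf4 and Taf12 was thus the same in all 3 libraries. Taf3 and Taf8, which pair with Taf10 proteins, had signals of 1382 and 1830.1 at 29 and 21 bp upstream.

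Taf10 and Taf10b, the closely related genes of the TFIID subunit Taf10, stand head to head with 45 bp between their starts. A single IDR summit at chr2L:2767859, shown above in the Taf10b-Taf10 line, served both, 31 bp upstream of Taf10 and 14 bp upstream of Taf10b. Its signal was 2471 (rank 1493), with 749, 899 and 899 in replicates 1, 2 and 3, at ranks 1684, 1265 and 1541. The spacing is below the length of the sonicated fragments (200 to 800 bp), so the paralogs cannot be told apart by this assay.

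The TFIID genes without a histone fold spanned the whole range of the complex. Taf7, which binds the largest subunit Taf1, had the strongest summit of all members, 14876 (rank 16) at chr3R:7907526, 112 bp upstream of its inner start and 193 bp from its outermost one. The replicate signals were 6479, 3024 and 5557, at ranks 6, 77 and 16. The summit also lay 163 bp from the start of EMC1. Taf1 had a signal of 530.1 at 45 bp upstream, and Taf2, which contacts the initiator with Taf1, had 348 at 16 bp. Taf5, the WD-repeat scaffold, had the weakest bound summit of the complex, 240.4 (rank 4775) at 47 bp upstream. Its replicate signals were 98.7, 66.1 and 85.0 at ranks 4669, 6285 and 5369, so in replicate 2 it lay outside the strongest 6070.

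Tbp, the subunit that bends TATA DNA, and its relatives Trf and Trf2, which replace it at subsets of fly promoters, all had a summit. Tbp had a signal of 2079 (rank 1645) at 27 bp upstream, with 785, 606 and 744 in replicates 1, 2 and 3, at ranks 1641, 1717 and 1709. Trf2 had 802 (rank 2583) at 195 bp upstream of its outermost start, with 300.4, 232 and 304 in the replicates, at ranks 2615, 3033 and 2661. At an inner Trf2 start, chrX:8421365, a weaker summit of the pooled relaxed list, not in the IDR list, lay 23 bp away with a signal of 99.8 (rank 6977). Trf had 287 (rank 4382) and shared its summit at chr2L:8072898 with the Mediator gene MED20, 3 bp inside Trf and 50 bp upstream of MED20. The replicate signals there were 95.6, 105 and 89.7, at ranks 4738, 4926 and 5216. The order Tbp, Trf2, Trf held in all 3 libraries, with no overlap in rank.

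Mediator is built of a head, a middle and a tail around the scaffold MED14. All 7 head genes (MED6, MED8, MED11, MED17, MED18, MED20 and MED22) were bound, with signals from 253 to 3583 and a median of 404. All 6 middle genes (MED4, MED7, MED9, MED10, MED21 and MED31) were bound, from 492 to 11944 with a median of 604. The head and middle thus had no unbound gene. Of the 6 tail genes (MED15, MED16, MED23, MED24, MED25 and MED27), 5 were bound, from 215 to 11989 with a median of 308. MED14 itself had a signal of 887 at 41 bp upstream, and the other 5 genes (MED1, MED19, MED26, MED28 and MED30) ran from 689.8 to 3233 with a median of 1144. The modules thus overlapped in signal, and the highest signals of Mediator were in the tail and the middle.

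The genes with these signals were MED27 in the tail and MED7 in the middle. MED27 had a signal of 11989 (rank 54) at 154 bp upstream, with 4545, 3011 and 4580.1 in replicates 1, 2 and 3, at ranks 53, 82 and 46. MED7 had 11944 (rank 57) at 121 bp upstream, with 4626, 3007 and 4519 at ranks 49, 83 and 53. Both summits lie between head-to-head starts that are 278 bp apart, with elm as the partner of MED27 and Cap-H2 as the partner of MED7. MED25, next in Mediator, had a nearest summit of 4111 (rank 947) at 114 bp upstream. A stronger one of 5079.9 (rank 722) within 500 bp was the nearest to its head-to-head partner Hs6st, 116 bp from the Hs6st start. MED25 ranked high in every library. Its strongest replicate summits within 500 bp were 1779, 1516 and 2027, at ranks 783, 646 and 652. The nearest ones were 1485, 1256 and 1546, at ranks 982, 861 and 959. The other end was held by MED24, with 215 (rank 5033) at 19 bp downstream of its start and 59.7, 92.0 and 73.7 in the replicates, at ranks 5799, 5315 and 5719. Although weak, MED24 stayed within the strongest 6070 of every library. The remaining 20 bound Mediator genes ran from 253 to 3583, at ranks 1107 to 4663.

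MED15, a tail subunit that gene-specific activators contact, was the unbound Mediator gene. Its nearest IDR summit lay 6225 bp away. The pooled relaxed list had a summit at 28 bp with a signal of 92.3 (rank 7199). The strongest replicate summits within 500 bp were 24.0, 39.6 and 29.4 at ranks 8583, 7972 and 8808. They lay at −299, −488 and −51 bp (negative is upstream) in replicates 1, 2 and 3. The nearest replicate summits, at 86, 10 and 51 bp, had signals of 17.4, 29.2 and 29.4 at ranks 10666, 9543 and 8808. A weak summit thus lay within 500 bp of MED15 in every relaxed list, not always at the same place, and none was in the IDR list. MED21, a middle subunit named here after its values were seen, was bound with 518 (rank 3258) at 74 bp upstream, and its replicate signals were 254 and 193 in replicates 1 and 3 at ranks 2848 and 3425. In replicate 2 the nearest summit lay 139649 bp away. Within 100000 bp of the MED21 start there were 10, 0 and 9 summits in replicates 1, 2 and 3, so the gap in replicate 2 covered the surroundings and not MED21 alone.

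Among the TfII genes, TfIIFalpha and TfIIA-L had the highest signals. TfIIFalpha, the large subunit of the factor that escorts the polymerase, had 4269 (rank 900) at 147 bp upstream, with 1433, 1239.9 and 1664 in replicates 1, 2 and 3, at ranks 1019, 878 and 879. Its partner subunit TfIIFbeta had 208 (rank 5109) at 37 bp upstream, with 60.8, 89.8 and 78.5 at ranks 5753, 5377 and 5569. The subunits of the same heterodimer thus stood far apart in every library. TfIIEalpha had 539 (rank 3166) at 51 bp, with 233, 143 and 168 at ranks 2965, 4125 and 3723. TfIIEbeta had the weakest bound summit of all members, 141 (rank 6024) at 21 bp, with 51.8, 48.0 and 49.3 at ranks 6154, 7307 and 6864. TfIIEbeta was thus close to the lowest signal in the IDR list (139) and outside the strongest 6070 of all 3 libraries. TfIIS had 1653 (rank 1853) at 75 bp, with 708, 359 and 551 at ranks 1735, 2337 and 1993, and TfIIB, which bridges Tbp and the polymerase, had 519 at 55 bp.

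TfIIA is a complex of the proteins from TfIIA-L and TfIIA-S. TfIIA-L had 3797 (rank 1049) with 1401, 1033 and 1432 in replicates 1, 2 and 3, at ranks 1044, 1104 and 1061. This summit lay 13 bp upstream of the inner start at chr3R:27253430 and 2305 bp from the outermost start, so TfIIA-L was bound at its inner start only. TfIIA-S had 1608 (rank 1873) at 54 bp upstream, with 616, 493 and 512 at ranks 1869, 1936 and 2056. Its paralog TfIIA-S-2 had no IDR summit within 15124 bp, and the nearest summit of the pooled relaxed list lay 1567 bp away with a signal of 29.0. The only summit within 500 bp of TfIIA-S-2 in any list was one in replicate 2, at 309 bp, with a signal of 9.54 at rank 28848 of 30000. Printed above, the starts of both paralogs hold CGATA, with 1 copy within 200 bp at TfIIA-S and 3 at TfIIA-S-2.

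Taf12L, also known as rye, is a TAF of the fly testis and the relative of Taf12. While Taf12 had a summit at 37 bp, the nearest IDR and pooled summit to Taf12L lay 93092 bp away, and the nearest relaxed summits were at 9649, 93093 and 40471 bp in replicates 1, 2 and 3. No list had a summit within 500 bp of Taf12L. In both paralog sets with an unbound gene, the other paralog was bound in the IDR list and in the strongest 6070 of every replicate.

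The 49 bound members recurred across libraries about as all bound coding genes did. The IDR list was made from these same libraries, so some agreement between them follows from the choice of bound genes. A summit was among the strongest 6070 of all 3 replicates at 46 of them (93.9%), against 88.3% of all bound coding genes, with Taf5 and MED21 found in 2 replicates and TfIIEbeta in 0. For the 48 members with a summit within 500 bp in every relaxed replicate list and the IDR list, the highest rank over the lowest rank had a median of 1.20, against 1.22 for 6027 coding genes. That ratio was over 2 at 1 member, Taf7, and at 4.46% of the coding genes. The summit ranked weakest in replicate 2 at 31 of the 48 members (64.6%), against 60.8% of the coding genes, so a lower rank in replicate 2 was about as common over the whole genome.

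**Figure D3:**
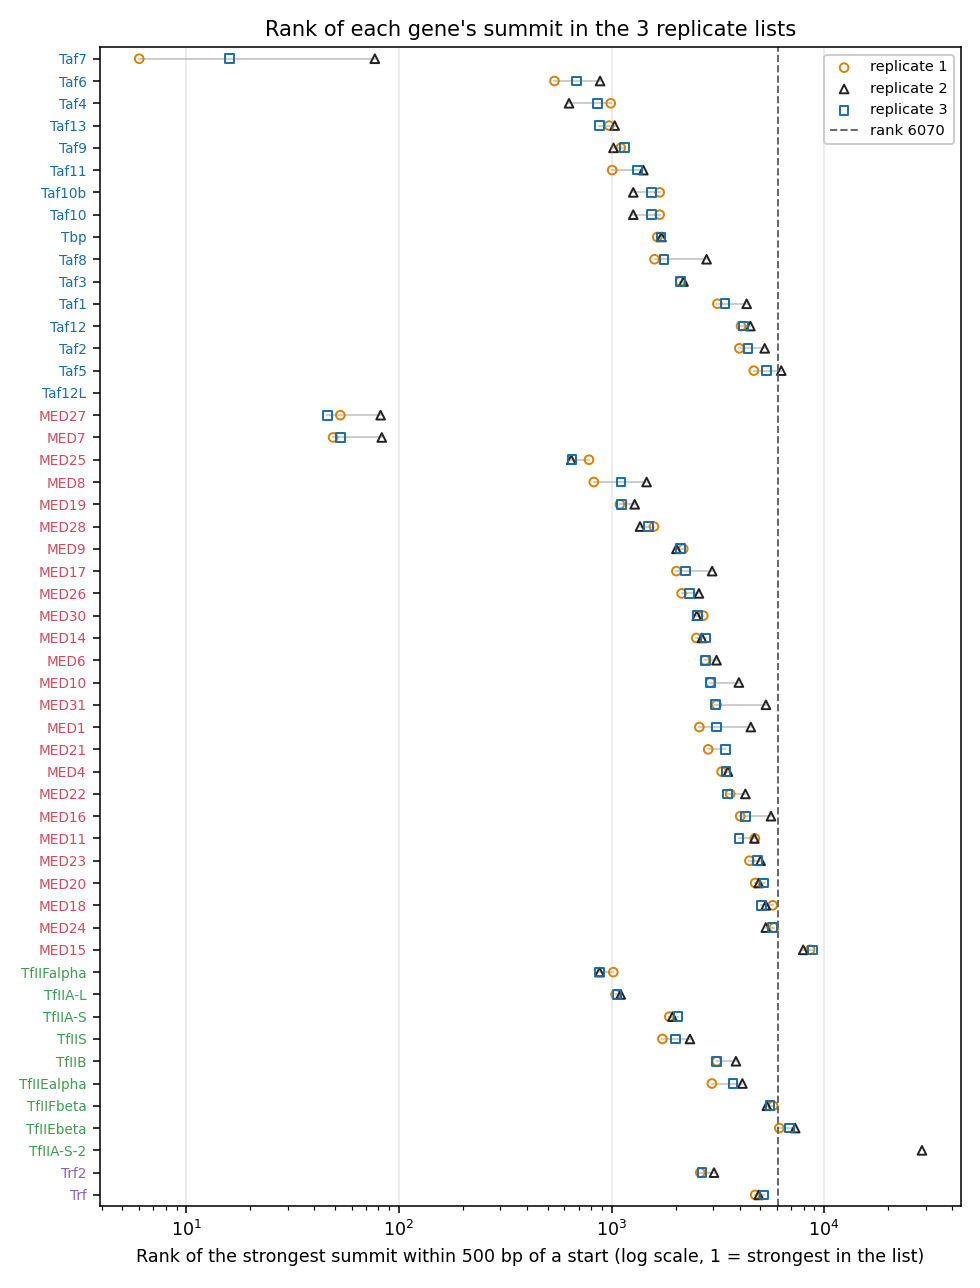
For each member, symbols give the rank of the strongest summit within 500 bp of a start in the relaxed lists of replicates 1, 2 and 3 (log axis, rank 1 the strongest), joined by a line. The dashed line is rank 6070; Taf7, MED27 and MED7 lie at ranks 6 to 83, Taf12L has no symbol, MED15 and TfIIEbeta lie right of the line in all replicates, and TfIIA-S-2 has a single symbol at rank 28848.

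The summits lay just in front of the starts. The median distance to the nearest start was 51 bp at the members and 67 bp at all bound coding genes, and the signed median was −51 bp at the members and −63 bp at all bound coding genes (negative is upstream). A summit lay within 100 bp at 38 of 49 members (77.6%), against 65.2% of all bound coding genes. It lay upstream at 47 of 49 (95.9%), against 89.4%, with MED24 and Trf the exceptions. The farthest was MED19 at 385 bp. By annotation, the summit was intergenic at 37 members, in a 5′ untranslated region at 6 and in an intron at 4 (Taf4, Taf7, MED26 and TfIIA-L). It was in a 3′ untranslated region at 1 (Trf2) and in an exon of a non-coding gene at 1 (MED7). A summit shared by members counts for each of them.

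**Figure D4:**
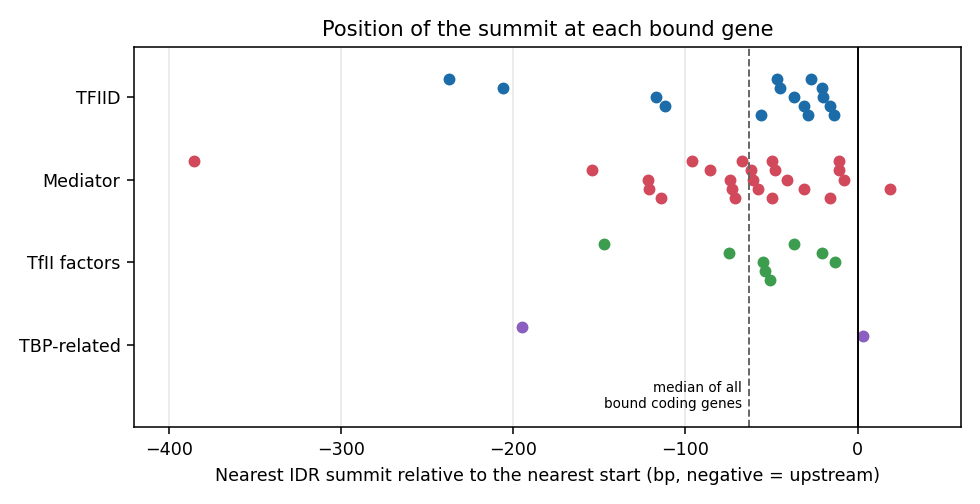
Points give the position of the nearest IDR summit relative to the nearest start of each bound gene in bp (negative is upstream), by complex; vertical spread within a row only separates the points. The dashed line is the median of all bound coding genes (−63 bp), and MED19 is farthest at −385 bp.

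Many of these genes share a promoter region with a neighbour. A divergent pair, with starts of adjacent coding genes at most 1000 bp apart and facing away from each other, held 34 of 52 members (65.4%), against 32.1% of all coding genes. In such pairs 32 of 34 members were bound (94.1%), against 77.0% of all coding genes in pairs. Outside pairs 17 of 18 members were bound (94.4%), against 27.9%. With no start of another coding gene within 1000 bp, 12 of 13 members were bound (92.3%), against 24.8%. Genes of this class have no close neighbour that could share the summit. In the replicates, these stand-alone members reached 82.1 ± 4.44% and stand-alone coding genes 22.8 ± 1.60% (SD, n = 3 libraries each). The share of members bound was therefore high with and without a neighbour, while that of all coding genes was lower without one.

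The distance between paired starts ran from 45 to 899 bp with a median of 266.5 bp. The partner was also bound in 31 of 34 cases, the exceptions being CG4297 beside MED15, CG14631 beside TfIIA-S-2 and TTLL6B beside TfIIA-L. In 20 cases the same summit was the nearest to both genes. Over all bound members, the summit lay within 500 bp of a start of another coding gene at 30 of 49 (61.2%), against 58.8% of all bound coding genes, and at 15 of these 30 the other gene's start was nearer. The Taf6 summit lay 96 bp from ash1, the Taf11 summit 21 bp from und, the Taf13 summit 6 bp from nesd, the Taf12 summit 16 bp from Ho, the MED19 summit 30 bp from CG7430, the MED27 summit 124 bp from elm and the TfIIFalpha summit 8 bp from CG1024. These summits thus lie near both genes of a pair, and which of them BEAF-32 bears on was not tested.

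A start with at least 1 copy of CGATA was about as frequent among these genes as elsewhere, and a start with 2 or more copies was more frequent. The string was searched on both strands within 200 bp of the outermost start, where TATCGATA, which reads the same on both strands, counts as 2 copies. At least 1 copy was found at 30 of 52 members (57.7%), against 54.2% of all coding genes, and 2 or more copies at 23 of 52 (44.2%), against 28.0%. By complex the count with at least 1 copy was 12 of 16 in TFIID, 13 of 25 in Mediator and 4 of 9 among the TfII genes. Within 100 bp of the summit CGATA was found at 27 of 49 bound members (55.1%), against 63.5% of all bound coding genes, and 2 or more copies at 17 of 49 (34.7%), against 43.4%. The start shares cover all genes and the summit shares bound genes only, so these comparisons cannot be set against each other. Over all coding genes, 59.2% of those with 2 copies at the start and 85.5% with 3 or more were bound. Without CGATA at the start, 21 of 22 members were bound (95.5%), against 30.4% of all coding genes. Members without the string at the outermost start were thus nearly all bound at some start, not always at the start searched. The TfIIA-L summit lay 2305 bp from its outermost start. The nearest MED26 summit, with 3 copies of CGATA, lay at an inner start. In the replicates the share of such members was 89.4 ± 2.62%, against 27.8 ± 2.23% of all such coding genes (SD, n = 3 libraries each). With CGATA at the start it was 92.2 ± 1.92% of the members and 53.1 ± 1.40% of all coding genes. Binding at all coding genes thus went with CGATA, and at the members it was frequent with and without it.

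The median signal was lower without CGATA than with it, at the members as at all bound coding genes. With 0 copies within 100 bp of the summit the median signal was 398 (22 members), against 405 at all bound coding genes. With 1 copy it was 3954 (10 members) against 851, with 2 copies 1830.1 (9 members) against 2155, and with 3 or more 2307 (8 members) against 3885. The median was thus lowest at the members without CGATA, and among those with it the medians did not climb with the number of copies as they did over all bound coding genes. Taf7 and MED27, among the highest of all, had 1 copy each, and MED28 and MED9, with 5 copies each, had signals of 2534 and 1365. Single genes went against the medians. Taf4 and TfIIS had signals of 4802 and 1653 with 0 copies, while MED18 had 253 and TfIIB 519 with 2 copies each, and MED21 had 518 with 1.

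**Figure D5:**
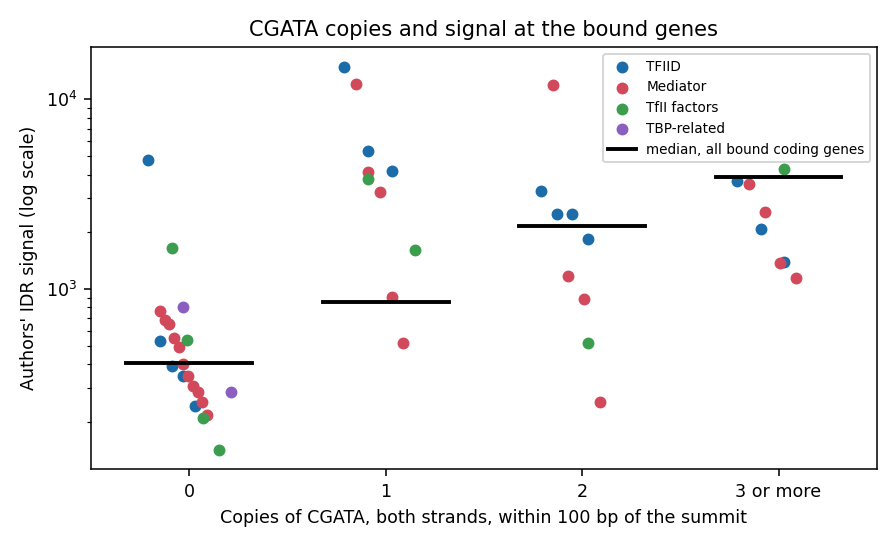
Points give the authors' IDR signal (log axis) of each bound member against the number of CGATA copies on both strands within 100 bp of its summit, by complex; horizontal spread only separates the points. Black bars are the medians of all bound coding genes (405, 851, 2155 and 3885); the 22 members with 0 copies have a median of 398, and Taf4 and TfIIS stand above the others of that class.

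GGTCACACT was also more frequent at the starts of the members. Within 200 bp of the outermost start it was found at 13 of 52 (25.0%), against 6.07% of all coding genes, with 9 of 25 in Mediator, 3 of 16 in TFIID, 0 of 9 among the TfII genes, and Trf. Mediator, the largest of the groups, thus held most of the starts with this string. The copy at MED20 and Trf lies in the first bases of MED20. It is counted for both genes, whose starts are 47 bp apart. Within 100 bp of the summit it was found at 9 of 49 (18.4%), against 10.5% of all bound coding genes. At 8 of these 9 members the summit had no CGATA (Taf1, Taf5, MED10, MED11, MED20, MED23, MED24 and Trf, with MED20 and Trf sharing a summit). Their median signal was 298, against 362 at the 310 bound coding genes of that kind. The 14 members with neither string at the summit had a median of 516, against 416, and the 27 with CGATA had 2471, against 2306. The value of 2471 is that of the summit shared by Taf10 and Taf10b, counted for both. The members without CGATA thus had low medians with and without GGTCACACT. All 12 members with neither string at the outermost start were bound at some start, TfIIA-L at its inner start only. Of the 6021 coding genes of that kind, 1623 were bound. The longer string TATCGATA was likewise more frequent at the starts, at 10 of 52 members (19.2%), against 9.13% of all coding genes. It was found at the summits of 9 of 49 bound members (18.4%), against 19.8% of all bound coding genes. The string GAGAG, a form of the site of the GAGA factor, was found at the summits of 4 of 49 bound members (8.16%). The share of all bound coding genes was 14.4%. A match is only a description of the letters in the window, and the absence of one says nothing of the protein.

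Genes of neighbouring complexes were looked at in the same way, from lists of names. The Mediator genes that carry other symbols, kto, skd, Cdk8 and CycC of the kinase module and the tail gene ix, were bound in 5 of 5 cases, with the highest signals at kto (3997), skd (3766) and ix (609.8). In the strongest 6070 summits of each replicate 4 of these 5 were found, with CycC in 1 replicate and Cdk8 in 2. TFIIH, the helicase and kinase factor, had 10 of 10, with the highest signals at mrn (8750.0), Tfb1 (7490) and Tfb5 (5282), and 10 of 10 in each replicate. RNA polymerase II had 13 of 13, led by Polr2J (7374), Polr2H (6444) and Polr2D (4291). In the replicates its share varied most of these lists, at 100, 69.2 and 92.3% in replicates 1, 2 and 3 (87.2 ± 16.0%, SD, n = 3), with Polr2K found in 1 replicate. SAGA, the coactivator that shares TAFs with TFIID, had 16 of 18, led by Atxn7 (7738), Sgf29 (6257) and Spt7 (4890), and its unbound genes Ada1-1 and Ada1-2 lay 6894 and 2987 bp from the nearest IDR summit. Its share in the replicates was 87.0 ± 3.21% (SD, n = 3). The IDR counts stand beside the same 43.7% of all coding genes.

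The testis TAF genes can, sa, nht and mia encode relatives of general TAFs that act in male germ cells of the fly. Of these, mia was bound with a signal of 1726 at 27 bp, and can, sa and nht were unbound, with the nearest IDR summit at 41804, 26544 and 11866 bp. With Taf12L, 4 of the 5 testis TAF genes had no IDR summit at a start. In the replicates 1 of the 4 listed genes, mia, was found among the strongest 6070 of every library (25.0 ± 0%, SD, n = 3), and the list is too short for a comparison.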

How the data were processed

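BEAF-32-GFP ChIP-seq regions from 3 embryo libraries were used as the authors deposited them, in narrowPeak format on dm6, with replicate numbers from the labels. Per the file headers, the relaxed lists come from each replicate's alignment and from the pooled alignments, all with a control alignment, and the IDR list was derived from them. No aligner, peak caller or threshold is given in the sources used here. Signal per region and its −log10 q-value were computed and deposited by the authors; the −log10 q-value was 4.24 at every IDR region and was not used. The same regions on another build and the control's coverage were not analysed here. Depth is unknown, so the spread given is that of each share over the 3 replicate lists, counted over the same genes.

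Summit offsets were turned into 1-based positions. Genes and 19252 distinct starts came from Ensembl BDGP6.54, release 115, and bases from the RefSeq dm6 genome. Groups of genes were described by counts, medians and ranks beside all coding genes; no p-value was computed. Values in every list are given for the 3 highest and the lowest gene of each complex, for paralogs and for unbound genes. The members, lists and rules were chosen with earlier results of these data known, and ix, the grouping of Mediator into modules and MED21 were added after values were seen. The distance and string counters were tested on simulated data. Alternatives changed the distance, the start used, the list, the replicates and the string window. The versions were numpy 2.4.6, pandas 2.3.3 and matplotlib 3.10.9 under Python 3.11.15.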

Additional observations from a re-analysis of the deposited data

How the results depend on the processing

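Of 39 alternative values, 30 stayed close to the reported value, 9 moved and 0 reversed. With distances of 250 and 1000 bp, 48 and 49 members were bound, with the outermost start alone 46, with overlap of a region and a start 49, and with the pooled relaxed list 50. In the strongest 3035 summits of the IDR list the counts were 30 for all members, 14 for Mediator and 4 for the TfII genes, against 28.5% of all coding genes; that list is shorter by construction. Among genes with no other start within 1000 bp, fewer genes enter: 12 of 13 members, 2 of 3 TFIID, 6 of 6 Mediator and 4 of 4 TfII genes were bound, and the median signal was 535, against 605 at bound coding genes of that class. The mean share over replicates was 96.2% with the whole relaxed lists, and leaving out each replicate gave 90.4 to 92.3%. CGATA windows of 100 and 300 bp gave 27 and 31 members. No paired analysis was possible because all libraries belong to 1 group. The signal's unstated scale, the unknown depth and mixed embryos of 0 to 14 h limit what single summits show, weak ones such as TfIIEbeta above all.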
